A study of Mus musculus with 12 samples.

Results

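The genes described here are those of cholesterol and fatty acid synthesis with their regulators, a list of 34 genes set by name and found in a table of 24063 genes. All 34 were found, and all 34 had an RPKM (reads per kilobase of transcript, scaled to the library) of at least 1 in at least 3 libraries, so that all were tested. They were measured by RNA-seq in splenic B cells of C57BL/6 mice, with 12 libraries in 4 groups of 3. B-KO GC B cells and WT GC B cells were sorted as B220+PNA+GL7+ cells on day 14 of a response to sheep red blood cells (SRBC). B-KO naive B cells and WT naive B cells were sorted as B220+ cells from unimmunized mice. B-KO mice carried floxed miR-146a (miR-146a fl/fl) deleted with CD21-cre, which is active in mature B cells, and WT were littermates whose cre status is not given. By the default age of the methods, mice were 8 to 10 weeks old. Whether spleens were pooled is not given either. The naive sort took all B220+ cells without a gate against PNA or GL7. Since GC B cells came only from immunized and naive B cells only from unimmunized mice, cell type and immunization cannot be told apart.

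Cells build cholesterol from acetyl-CoA through mevalonate, isoprenoids and squalene, and they build fatty acids from the same acetyl-CoA through malonyl-CoA. Both routes are controlled by the SREBP transcription factors, which SCAP carries from the endoplasmic reticulum to the Golgi when sterols are low and which INSIG proteins hold back when sterols are high. Dividing lymphocytes need both products for new membranes, and isoprenoids of the same route anchor small GTPases to membranes.

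Reads recovered from the deposited values and summed over all transcripts came to 22945634 to 39118224 per library. Of these, 37.6% were on further transcripts of a gene, so a read may be in the sum more than once. The 34 genes had 5 to 30591 reads each per library, with the lowest number for *Fads2* in a WT naive library. Reads of the *Mir146* transcript were 0 to 4 in every library, too few to check the genotype labels. GC B cell markers (*Bcl6*, *Mef2b*, *Gcsam*, *S1pr2*, *Fas* and *Rgs13*) summed to 5147 to 7193 RPKM in B-KO GC and 6190.4 to 7387 in WT GC B cells, against 399.6 to 1138 RPKM in B-KO naive and 271 to 444 in WT naive B cells. A list of 8 proliferation genes summed to 5787 to 8487 RPKM in B-KO GC and 5305 to 8899 in WT GC B cells, against 837 to 1679 RPKM in B-KO naive and 746 to 960 in WT naive B cells. B-KO GC library 2 and WT GC library 3 had the 2 highest sums of naive B cell markers among GC libraries (2822 and 2145 RPKM, against 1128 to 1289 RPKM in the other 4), and B-KO naive library 1 had the highest GC marker sum among naive libraries. For the 34 genes as a whole, counts by p and by direction were also made without these 3 libraries. Counts of their subgroups, of other gene lists and of genes whose groups did not overlap used all 12 libraries only.

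GC B cells differed from naive B cells in nearly the whole route. In B-KO, 23 of the 34 genes were higher in GC B cells at an adjusted p under 0.05 (limma, Benjamini-Hochberg over 13704 genes), against 30.0% of all genes tested. In B-KO, 6 genes were lower, against 27.5% of all genes tested, and 5 (*Mvk*, *Tm7sf2*, *Acaca*, *Acly* and *Scd2*) did not pass. In WT, 28 genes were higher, against 31.7% of all genes tested, and 6 were lower, against 30.2% of all genes tested. The 6 lower genes were *Ebp*, *Ggps1*, *Insig2*, *Scap*, *Elovl5* and *Scd1* in both genotypes. The median log2 fold change over the 34 genes was 0.71 in B-KO and 0.94 in WT, beside 0.02 in B-KO and 0.01 in WT over all genes tested. In WT, the 3 GC values lay above the 3 naive values for 28 genes (34.2% of all genes tested) and below them for 6 (33.1% of all genes tested). Without the 3 libraries named above, the counts were again 23 higher and 6 lower in B-KO and 28 higher and 6 lower in WT. The proliferation sums moved with this difference, and so did the sums of 4 plasma cell markers in WT (3370 to 4773 RPKM in WT GC, against 485 to 1106 RPKM in WT naive B cells). Most of the sum in WT GC B cells came from *Jchain*, at 2852, 3286 and 4093 RPKM. The plasma cell marker *Sdc1* went the other way, with 6.36, 8.97 and 21.6 RPKM in WT GC, against 50.1, 52.9 and 65.3 RPKM in WT naive B cells. In B-KO, the plasma cell sums overlapped (3838 to 5742 RPKM in GC, against 1334 to 4050 RPKM in naive B cells). Macrophage and monocyte marker sums were higher in GC B cells, at 200 to 513 RPKM in B-KO and 152 to 364 RPKM in WT. The naive sums were 137 to 164 RPKM in B-KO and 104 to 140 RPKM in WT. *Adgre1* of this sum was lower in WT GC (5.75, 5.905 and 19.6 RPKM) than in WT naive B cells (29.9, 28.4 and 36.9 RPKM). The part of these markers in the difference was not tested. In bulk RNA, a change in the share of cells that express a gene and a change in RNA per cell cannot be told apart.

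**Figure D1:**
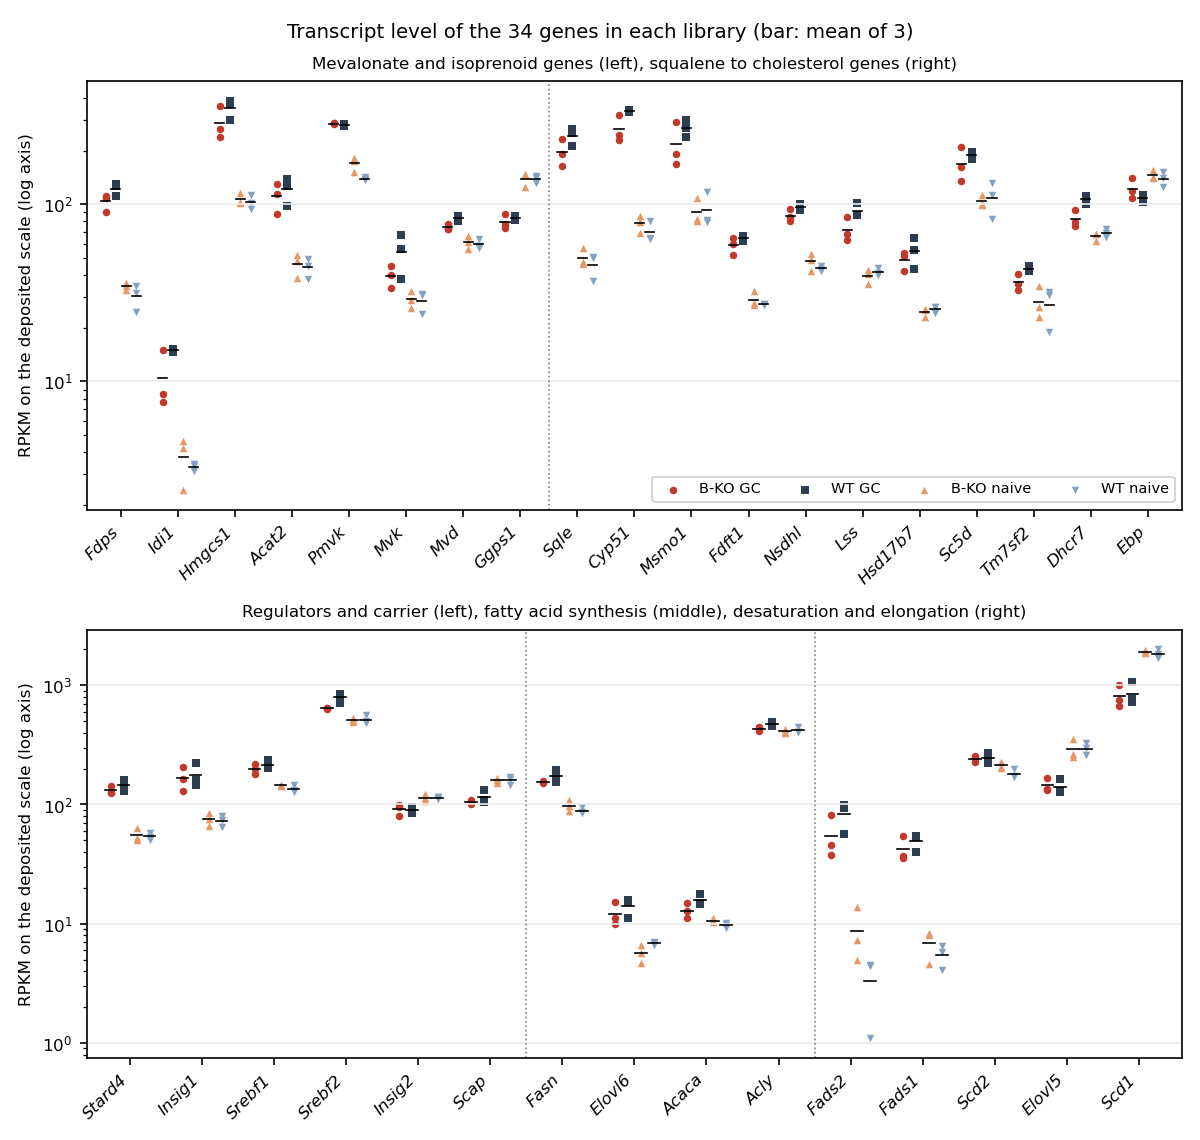
RPKM on the deposited scale (log axis) of each of the 34 genes in each library, grouped by role, with B-KO GC, WT GC, B-KO naive and WT naive libraries from left to right within a gene and a bar at the mean of 3. Levels ran from a mean of 1354 RPKM for *Scd1* to 8.11 RPKM for *Idi1* over the 12 libraries, and *Fads2* in WT naive library 1 was the lowest value drawn.

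Of the 8 genes of the mevalonate and isoprenoid steps, 6 rose in B-KO GC B cells, against 30.0% of all genes tested, and 7 in WT GC B cells, against 31.7%. *Hmgcs1*, which makes HMG-CoA, had 268, 238 and 359 RPKM in B-KO GC and 369, 383 and 297 RPKM in WT GC B cells. The naive values were 101, 103 and 115 RPKM in B-KO and 94.2, 102 and 113 RPKM in WT. *Fdps*, which makes farnesyl diphosphate, the branch point between sterols and isoprenoids, had 109, 90.6 and 112 RPKM in B-KO GC and 129.6, 126 and 111 RPKM in WT GC B cells. In naive B cells, the values were 36.0, 33.0 and 34.6 RPKM in B-KO and 24.7, 34.7 and 31.6 RPKM in WT. The 6 GC values of each gene lay above the 6 naive values. The log2 fold change, GC over naive, of *Hmgcs1* was 1.41 ± 0.15 in B-KO and 1.75 ± 0.15 in WT (SE, adjusted p = 2.64e-05 and 4.31e-06), and that of *Fdps* was 1.55 ± 0.13 in B-KO and 1.98 ± 0.13 in WT (adjusted p = 1.12e-05 and 2.04e-06).

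*Acat2*, which joins acetyl-CoA units at the entry of the route, averaged 111 ± 21.6 RPKM in B-KO GC and 121 ± 21.7 in WT GC B cells, against 46.0 ± 6.91 in B-KO naive and 44.0 ± 5.75 in WT naive B cells (SD, n = 3 each). *Mvk* and *Pmvk*, the kinases that phosphorylate mevalonate in sequence, differed in level and in fold. *Pmvk* averaged 285 ± 1.30 RPKM in B-KO GC and 281 ± 4.25 in WT GC B cells, against 170.4 ± 15.8 in B-KO naive and 139 ± 2.60 in WT naive B cells, with a log2 fold change of 0.74 ± 0.07 in B-KO and 1.01 ± 0.07 in WT. *Mvk* averaged 39.4 ± 5.51 RPKM in B-KO GC and 53.7 ± 14.7 in WT GC B cells, against 29.1 ± 3.11 in B-KO naive and 28.6 ± 4.08 in WT naive B cells. Its log2 fold change of 0.42 ± 0.20 in B-KO did not pass (adjusted p = 0.0912), while that of 0.86 ± 0.20 in WT did (adjusted p = 0.00318). *Mvd*, which yields isopentenyl diphosphate, changed less, at 0.28 ± 0.08 in B-KO and 0.49 ± 0.08 in WT. *Idi1*, which isomerizes that product, was the gene of lowest level, with 7.63, 8.47 and 15.1 RPKM in B-KO GC and 14.6, 15.3 and 15.1 RPKM in WT GC B cells. B-KO naive B cells had 4.62, 4.21 and 2.44 RPKM, and WT naive B cells had 3.33, 3.42 and 3.13 RPKM. Its values in B-KO GC libraries 1 and 2 lay between the naive values and the 4 other GC values.

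*Ggps1*, which makes geranylgeranyl diphosphate for protein prenylation, went the other way from its neighbours. It had 73.3, 77.0 and 87.7 RPKM in B-KO GC and 84.1, 86.2 and 81.8 RPKM in WT GC B cells. Naive B cells had 145.9, 148 and 125 RPKM in B-KO and 145, 132 and 140.1 RPKM in WT. The naive values lay above the GC values in both genotypes, with a log2 fold change of -0.81 ± 0.09 in B-KO and -0.72 ± 0.09 in WT (adjusted p = 3.34e-05 and 4.07e-05).

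Among the 11 genes from squalene to cholesterol, 9 rose in B-KO GC B cells, against 30.0% of all genes tested, and 10 in WT GC B cells, against 31.7%. *Sqle*, the squalene epoxidase and a rate-limiting step, had 192, 165 and 232 RPKM in B-KO GC and 266, 252 and 214 RPKM in WT GC B cells. The naive values were 56.4, 47.4 and 46.1 RPKM in B-KO and 37.0, 49.7 and 50.1 RPKM in WT. GC means were 3.93 times the naive mean in B-KO and 5.34 times in WT, and the groups did not overlap. *Cyp51*, the lanosterol demethylase, had 231, 245 and 319 RPKM in B-KO GC and 333, 342 and 334 RPKM in WT GC B cells. In naive B cells, the values were 85.3, 79.6 and 68.8 RPKM in B-KO and 64.2, 63.4 and 80.2 RPKM in WT. Its log2 fold change was 1.74 ± 0.13 in B-KO and 2.27 ± 0.13 in WT (adjusted p = 8.74e-06 and 1.32e-06), beside 1.94 ± 0.15 and 2.40 ± 0.15 for *Sqle* (adjusted p = 9.73e-06 and 1.84e-06). *Msmo1*, the methylsterol oxidase, averaged 218 ± 64.8 RPKM in B-KO GC and 269.9 ± 30.1 in WT GC B cells, against 90.3 ± 15.5 in B-KO naive and 92.9 ± 21.3 in WT naive B cells.

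Squalene synthase *Fdft1* averaged 58.6 ± 6.53 RPKM in B-KO GC and 64.4 ± 2.05 in WT GC B cells, against 29.0 ± 2.87 in B-KO naive and 27.2 ± 0.262 in WT naive B cells. Lanosterol synthase *Lss* averaged 71.8 ± 11.2 RPKM in B-KO GC and 91.5 ± 8.24 in WT GC B cells, against 39.4 ± 3.50 in B-KO naive and 41.6 ± 1.94 in WT naive B cells. *Nsdhl* and *Hsd17b7*, which take part in removing methyl groups from the sterol ring, were higher too, with log2 fold changes of 0.84 ± 0.10 and 0.94 ± 0.15 in B-KO and of 1.14 ± 0.10 and 1.04 ± 0.15 in WT. *Sc5d*, a sterol desaturase, had a log2 fold change of 0.68 ± 0.17 in B-KO and 0.82 ± 0.17 in WT, and *Dhcr7*, the reductase of the last step, of 0.31 ± 0.09 in B-KO and 0.62 ± 0.09 in WT. *Tm7sf2*, a sterol reductase, had 0.38 ± 0.20 in B-KO, which did not pass (adjusted p = 0.125), and 0.68 ± 0.20 in WT (adjusted p = 0.0111).

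*Ebp*, a sterol isomerase, was lower in GC B cells, with 119, 140.3 and 108 RPKM in B-KO GC and 102, 112 and 111 RPKM in WT GC B cells. B-KO naive B cells had 141, 157 and 143 RPKM, and WT naive B cells had 151, 126 and 140.4 RPKM. The difference was small, at a log2 fold change of -0.27 ± 0.10 in B-KO and -0.35 ± 0.10 in WT (adjusted p = 0.0415 and 0.0106). In B-KO it passed in 15 of 25 alternative settings, and in WT in 25 of 25. Reads were counted on both strands, and more than 10% of the exon bases of 5 genes (*Fdft1*, *Fdps*, *Hmgcs1*, *Scap* and *Tm7sf2*) are shared with another annotated gene, so that reads of the pair cannot be told apart there.

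The regulators split. *Srebf2*, which codes for the SREBP of sterol synthesis, had 640.0, 633 and 644 RPKM in B-KO GC and 845, 712 and 827 RPKM in WT GC B cells. Naive B cells had 507, 487 and 529 RPKM in B-KO and 497, 563 and 481 RPKM in WT. *Srebf1*, which codes for the SREBP forms of sterol and fatty acid synthesis, averaged 199 ± 19.7 RPKM in B-KO GC and 214 ± 17.9 in WT GC B cells, against 145 ± 1.16 in B-KO naive and 135 ± 9.29 in WT naive B cells. Both rose in GC B cells, by a log2 fold change of 0.33 ± 0.08 in B-KO and 0.63 ± 0.08 in WT for *Srebf2* and of 0.45 ± 0.09 in B-KO and 0.66 ± 0.09 in WT for *Srebf1*. *Scap*, the escort of both proteins, fell to 105 ± 3.72 RPKM in B-KO GC and 115 ± 14.4 in WT GC B cells, against 160.0 ± 6.51 in B-KO naive and 160.3 ± 12.6 in WT naive B cells. Its log2 fold change was -0.61 ± 0.09 in B-KO and -0.48 ± 0.09 in WT (adjusted p = 0.000236 and 0.000859).

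The paralogs that hold SREBP back went in opposite directions. *Insig1*, itself an SREBP target, had 129, 206 and 164 RPKM in B-KO GC and 161, 147 and 223 RPKM in WT GC B cells. The naive values were 66.2, 75.5 and 84.98 RPKM in B-KO and 65.2, 74.0 and 79.6 RPKM in WT. *Insig2* had 79.6, 94.8 and 98.2 RPKM in B-KO GC and 91.7, 95.5 and 84.0 RPKM in WT GC B cells. In naive B cells, the values were 107, 121 and 113 RPKM in B-KO and 111, 115 and 115 RPKM in WT. The log2 fold change of *Insig1* was 1.11 ± 0.19 in B-KO and 1.25 ± 0.19 in WT, and that of *Insig2* was -0.33 ± 0.09 in B-KO and -0.33 ± 0.09 in WT (adjusted p = 0.00937 and 0.00779). *Stard4*, a carrier that moves cholesterol between membranes, averaged 132 ± 10.2 RPKM in B-KO GC and 145 ± 16.3 in WT GC B cells, against 55.2 ± 6.85 in B-KO naive and 54.0 ± 3.55 in WT naive B cells, with a log2 fold change of 1.25 ± 0.11 in B-KO and 1.41 ± 0.11 in WT.

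Promoter windows of 300 bases (250 before to 50 after the start of transcription, RefSeq, GRCm38.p6) were at hand for 27 of the 34 genes. SREBP binds sterol response elements and E-boxes, often beside sites of NF-Y and SP1. The letters TCACNCCA, a sterol response element, were found on either strand in 3 of the 27 genes, against 4.97% of all 27025 genes with a window, and the E-box CACGTG in 6, against 8.09% of all genes. Of the 6 E-box genes, *Insig1*, *Hsd17b7*, *Sc5d* and *Dhcr7* rose in GC B cells of both genotypes, and *Scap* and *Elovl5* fell in both. CCAAT, the NF-Y box, was found in 22 of the 27 genes, against 41.1% of all genes, and the GC box GGGCGG in 21, against 38.2% of all genes. No match shared a base with a match of another of these motifs. The 3 stretches with TCACNCCA (capitals) belong to genes that rose in GC B cells of both genotypes and lie 137, 162 and 177 bases before the start for *Hmgcs1* (chr13:119690205-119690230, + strand), *Srebf2* (chr15:82147098-82147123, + strand) and *Msmo1* (chr8:64733739-64733764, - strand). The E-box stretches of *Insig1* (chr5:28071302-28071325, + strand, 101 bases before the start), *Hsd17b7* (chr1:169969334-169969357, - strand, 143 bases before the start) and *Elovl5* (chr9:77917195-77917218, + strand, 161 bases before the start) are shown as those of the 3 E-box genes with the largest fold changes in WT in either direction.
Hmgcs1: gtcaccgtcTCACCCCActtcccagg
Srebf2: gacgcaccaTCACCCCAtgagccgct
Msmo1: tcactattcTCACTCCAtccgcgcag
Insig1: gggtgaggtCACGTGgctccggtg
Hsd17b7: cccttgtgtCACGTGgctccgccc
Elovl5: gccccgagaCACGTGaaccacagg
These are matches of letters, and no binding was measured.

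Of the 4 genes of fatty acid synthesis proper, 2 rose in B-KO GC B cells, against 30.0% of all genes tested, and all 4 in WT GC B cells, against 31.7%. *Fasn*, the fatty acid synthase, had 151, 153 and 156 RPKM in B-KO GC and 193, 154 and 175 RPKM in WT GC B cells. B-KO naive B cells had 109, 87.8 and 96.7 RPKM, and WT naive B cells had 87.3, 95.1 and 84.0 RPKM. All 6 GC values lay above all 6 naive values, with a log2 fold change of 0.65 ± 0.10 in B-KO and 0.96 ± 0.10 in WT (adjusted p = 0.000231 and 1.32e-05). *Elovl6*, which extends the palmitate that FASN makes, averaged 12.1 ± 2.86 RPKM in B-KO GC and 14.02 ± 2.46 in WT GC B cells, against 5.70 ± 0.988 in B-KO naive and 6.84 ± 0.159 in WT naive B cells. *Acaca*, the carboxylase that makes malonyl-CoA, averaged 12.9 ± 1.81 RPKM in B-KO GC and 15.8 ± 1.73 in WT GC B cells, against 10.6 ± 0.430 in B-KO naive and 9.75 ± 0.456 in WT naive B cells. Its log2 fold change was 0.25 ± 0.14 in B-KO (adjusted p = 0.151) and 0.64 ± 0.14 in WT (adjusted p = 0.00247). *Acly*, which splits citrate into cytosolic acetyl-CoA, was among the most abundant of the 34 genes and changed little, with 446, 427 and 417 RPKM in B-KO GC and 488, 464 and 457 RPKM in WT GC B cells. Naive B cells had 396, 406 and 426 RPKM in B-KO and 409, 408 and 443 RPKM in WT. Its log2 fold change of 0.07 ± 0.06 in B-KO did not pass (adjusted p = 0.314). That of 0.16 ± 0.06 in WT passed narrowly (adjusted p = 0.0295, and in 17 of 25 alternative settings).

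The desaturases and elongases held the widest range. *Fads2*, which begins the desaturation of essential fatty acids, had 46.0, 37.4 and 80.9 RPKM in B-KO GC and 99.0, 93.9 and 57.0 RPKM in WT GC B cells. The naive values were 13.8, 7.34 and 4.96 RPKM in B-KO and 1.10, 4.42 and 4.49 RPKM in WT. GC means were 6.30 times the naive mean in B-KO and 25.0 times in WT, and the WT naive values rest on few reads. *Fads1*, which acts later on the same chain, had 37.2, 35.5 and 54.4 RPKM in B-KO GC and 54.6, 53.5 and 40.0 RPKM in WT GC B cells. In naive B cells, the values were 7.996, 8.32 and 4.56 RPKM in B-KO and 4.09, 5.76 and 6.50 RPKM in WT. Their log2 fold changes were 2.55 ± 0.45 and 2.46 ± 0.25 in B-KO (adjusted p = 0.000667 and 2.41e-05) and 4.37 ± 0.45 and 2.97 ± 0.25 in WT (adjusted p = 1.4e-05 and 4.49e-06).

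*Elovl5*, which elongates the products of FADS2, went the other way. It averaged 145 ± 19.6 RPKM in B-KO GC and 140.1 ± 20.5 in WT GC B cells, against 291 ± 54.7 in B-KO naive and 294 ± 32.6 in WT naive B cells, with a log2 fold change of -0.99 ± 0.15 in B-KO and -1.07 ± 0.15 in WT. *Scd1*, the main stearoyl-CoA desaturase and the most abundant of the 34 genes, had 757, 1006 and 676 RPKM in B-KO GC and 767, 729 and 1056 RPKM in WT GC B cells. B-KO naive B cells had 1887, 1876 and 1969 RPKM, and WT naive B cells had 2006, 1820.2 and 1697 RPKM. Every GC value lay below every naive value, with a log2 fold change of -1.25 ± 0.16 in B-KO and -1.13 ± 0.16 in WT (adjusted p = 8.17e-05 and 0.000112). Its paralog *Scd2* averaged 243 ± 15.4 RPKM in B-KO GC and 244 ± 23.8 in WT GC B cells, against 212 ± 14.8 in B-KO naive and 180.2 ± 16.8 in WT naive B cells, with a log2 fold change of 0.19 ± 0.09 in B-KO (adjusted p = 0.0946) and 0.44 ± 0.09 in WT (adjusted p = 0.00174). How reads shared by the 2 paralogs were counted is not given in the sources used here.

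**Figure D2:**
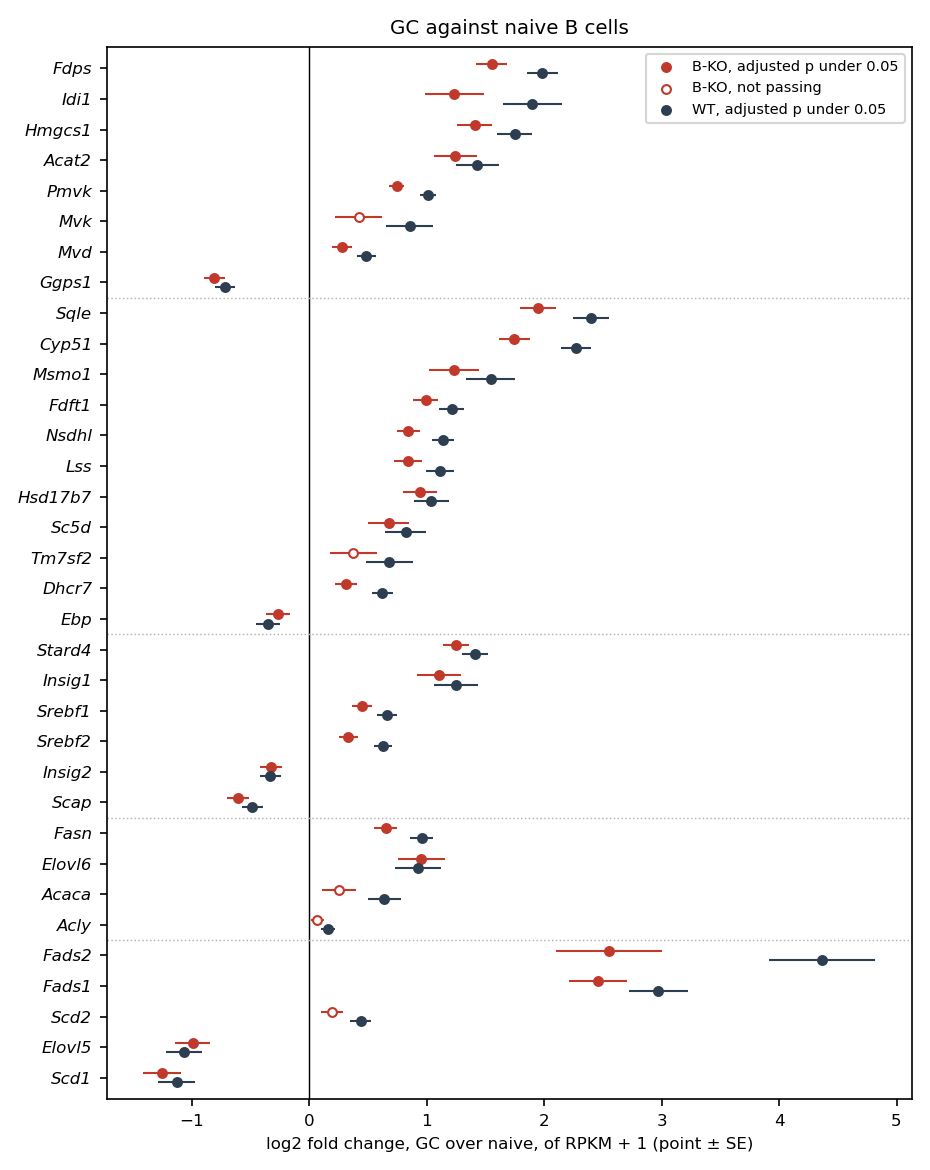
Log2 fold change (x axis, GC over naive, of RPKM + 1, point ± SE) of the 34 genes (y axis, grouped by role) in B-KO and WT, filled where the adjusted p was under 0.05 (limma, n = 3 per group). The same 6 genes lie left of 0 in both genotypes, and *Fads2* lies farthest right, at 2.55 in B-KO and 4.37 in WT.

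Genes around the route were taken from 6 further lists. The counts of these lists stand beside 30.0% of all genes tested that were higher and 27.5% that were lower in B-KO, and 31.7% higher and 30.2% lower in WT. Of 11 tested genes of sterol efflux, uptake control and storage, 1 was higher and 7 lower in B-KO GC B cells, and 1 was higher and 9 lower in WT GC B cells, with a median log2 fold change of -0.90 in B-KO and -1.14 in WT. *Abca1*, which exports cholesterol, averaged 44.9 ± 10.9 RPKM in B-KO GC and 43.3 ± 11.4 in WT GC B cells, against 186 ± 9.09 in B-KO naive and 159 ± 31.4 in WT naive B cells. *Mylip*, a ubiquitin ligase for lipoprotein receptors induced by sterol excess, averaged 171 ± 22.0 RPKM in B-KO GC and 144 ± 18.5 in WT GC B cells, against 499 ± 28.3 in B-KO naive and 499.97 ± 36.0 in WT naive B cells. *Soat1*, which esterifies cholesterol for storage, averaged 76.0 ± 5.21 RPKM in B-KO GC and 77.4 ± 1.95 in WT GC B cells, against 150.005 ± 6.56 in B-KO naive and 143 ± 16.4 in WT naive B cells. *Lipa*, the lysosomal lipase that frees it from esters, averaged 66.3 ± 10.1 RPKM in B-KO GC and 54.6 ± 2.49 in WT GC B cells, against 99.5 ± 7.04 in B-KO naive and 96.5 ± 5.08 in WT naive B cells. All 4 had lower values in every GC library than in every naive library of the same genotype, at log2 fold changes of -2.06 ± 0.22, -1.55 ± 0.11, -0.97 ± 0.09 and -0.59 ± 0.11 in B-KO and of -1.86 ± 0.22, -1.79 ± 0.11, -0.87 ± 0.09 and -0.81 ± 0.11 in WT. The exception that rose was *Lpcat3*, a phospholipid acyltransferase, at 0.30 ± 0.09 in B-KO and 0.36 ± 0.09 in WT, and it was named after its values were seen.

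Of 6 tested genes that supply precursors, 2 were higher and 2 lower in each genotype, which is near the shares of all genes tested. *Mid1ip1*, an activator of acetyl-CoA carboxylase, averaged 258 ± 24.1 RPKM in B-KO GC and 289 ± 24.7 in WT GC B cells, against 108 ± 15.3 in B-KO naive and 102 ± 4.77 in WT naive B cells. *Slc25a1*, the mitochondrial citrate carrier, averaged 131 ± 12.5 RPKM in B-KO GC and 148 ± 3.99 in WT GC B cells, against 101 ± 0.275 in B-KO naive and 96.1 ± 6.10 in WT naive B cells. *Acss2* and *Acss1*, which make acetyl-CoA from acetate, were lower, at log2 fold changes of -0.89 ± 0.23 and -0.27 ± 0.05 in B-KO and of -0.94 ± 0.23 and -0.19 ± 0.05 in WT. Of 8 tested genes of further elongation and acyl-CoA formation, 4 were higher and 1 was lower in each genotype. The acyl-CoA synthetase *Acsl3* averaged 70.4 ± 8.68 RPKM in B-KO GC and 77.6 ± 10.6 in WT GC B cells, against 38.0 ± 4.48 in B-KO naive and 37.4 ± 1.75 in WT naive B cells. Its paralog *Acsl5* averaged 477 ± 43.7 RPKM in B-KO GC and 479 ± 52.6 in WT GC B cells, against 306 ± 21.7 in B-KO naive and 277 ± 13.9 in WT naive B cells. The reductase *Hsd17b12* rose by a log2 fold change of 0.40 ± 0.08 in B-KO and 0.49 ± 0.08 in WT. The dehydratase *Hacd3* fell to 94.7 ± 4.26 RPKM in B-KO GC and 80.2 ± 4.10 in WT GC B cells, against 131 ± 13.7 in B-KO naive and 129 ± 8.87 in WT naive B cells.

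Of 18 genes of fatty acid oxidation, 5 were higher and 5 lower in B-KO GC B cells, and 5 were higher and 7 lower in WT GC B cells. These shares too are near those of all genes tested. The electron carriers *Etfa* and *Etfb* had log2 fold changes of 0.88 ± 0.12 and 0.86 ± 0.10 in B-KO and of 1.09 ± 0.12 and 0.69 ± 0.10 in WT. Their dehydrogenase *Etfdh* was lower, at -0.24 ± 0.07 in B-KO and -0.49 ± 0.07 in WT and so was the acyl-CoA dehydrogenase *Acadm*, at -0.43 ± 0.06 in B-KO and -0.55 ± 0.06 in WT. Of 7 genes of SREBP processing and INSIG turnover, 2 were higher and 3 lower in B-KO, and 2 were higher and 2 lower in WT, again near the shares of all genes. *Erlin1*, of the complex that degrades INSIG clients, rose by a log2 fold change of 0.61 ± 0.10 in B-KO and 0.52 ± 0.10 in WT, and *Faf2* by 0.22 ± 0.06 in B-KO and 0.28 ± 0.06 in WT. *Erlin2*, the partner of ERLIN1, was lower, at -0.33 ± 0.11 in B-KO and -0.46 ± 0.11 in WT, and so was the ubiquitin ligase *Rnf139*, at -0.29 ± 0.08 in B-KO and -0.39 ± 0.08 in WT. Of 13 genes that use isoprenoids, 5 were higher and 3 lower in each genotype, near the shares of all genes as well. Among the higher were *Dhdds*, for dolichol, and *Pggt1b*, a geranylgeranyl transferase subunit, at log2 fold changes of 0.47 ± 0.08 and 0.55 ± 0.12 in B-KO and of 0.64 ± 0.08 and 0.70 ± 0.12 in WT. *Pdss1*, for ubiquinone, was also higher, at 0.63 ± 0.15 in B-KO and 0.85 ± 0.15 in WT. *Rabggta*, of the transferase that prenylates RAB proteins, was lower, at -0.36 ± 0.08 in B-KO and -0.44 ± 0.08 in WT.

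The genotype comparison in GC B cells, which asks what loss of miR-146a does in the responding cells, called none of the 34 genes at an adjusted p under 0.05, against 0.00730% of all genes tested (limma, Benjamini-Hochberg). At an unadjusted p under 0.05, 5 of the 34 were lower in B-KO, against 1.61% of all genes tested, and none was higher. With limma voom on the recovered reads, none was called either and 9 were lower at an unadjusted p under 0.05. This count ran from 3 to 11 over the alternatives. It was 3 without the 3 libraries named above, 3 without B-KO GC library 1, B-KO GC library 2 or WT GC library 1 alone, 10 without B-KO GC library 3 and 9 without WT GC library 3. The 3 B-KO values lay below the 3 WT values for 7 genes (*Mvd*, *Lss*, *Cyp51*, *Dhcr7*, *Tm7sf2*, *Srebf2* and *Acly*), against 3.21% of all genes tested. The log2 fold change, B-KO over WT, was below 0 for 30 of the 34 genes, while 58.5% of all genes tested lay above 0. Its median was -0.17 over the 34 genes and 0.03 over all genes tested.

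The 4 genes of smallest p were *Dhcr7*, *Srebf2*, *Lss* and *Cyp51*. *Dhcr7* had 75.4, 79.0 and 92.8 RPKM in B-KO GC B cells, against 110.2, 99.7 and 112 RPKM in WT GC B cells. Its log2 fold change was -0.38 ± 0.09 (adjusted p = 0.517), the lowest p of the 34. For *Srebf2*, with 640.0, 633 and 644 RPKM in B-KO GC B cells, against 845, 712 and 827 RPKM in WT GC B cells, it was -0.31 ± 0.08 (adjusted p = 0.538). The B-KO values of *Srebf2* were close together and all 3 below the lowest WT value. *Lss* had 63.1, 67.9 and 84.4 RPKM in B-KO GC B cells, against 101, 86.4 and 87.2 RPKM in WT GC B cells and *Cyp51* had 231, 245 and 319 RPKM in B-KO GC B cells, against 333, 342 and 334 RPKM in WT GC B cells, at log2 fold changes of -0.35 ± 0.12 and -0.36 ± 0.13 (adjusted p = 0.721 and 0.79). B-KO library 3 was the B-KO library closest to WT for *Dhcr7*, *Lss* and *Cyp51*. Without B-KO GC library 2, WT GC library 3 and B-KO naive library 1, no gene passed and again 30 of 34 values lay below 0, with a median of -0.19.

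**Figure D3:**
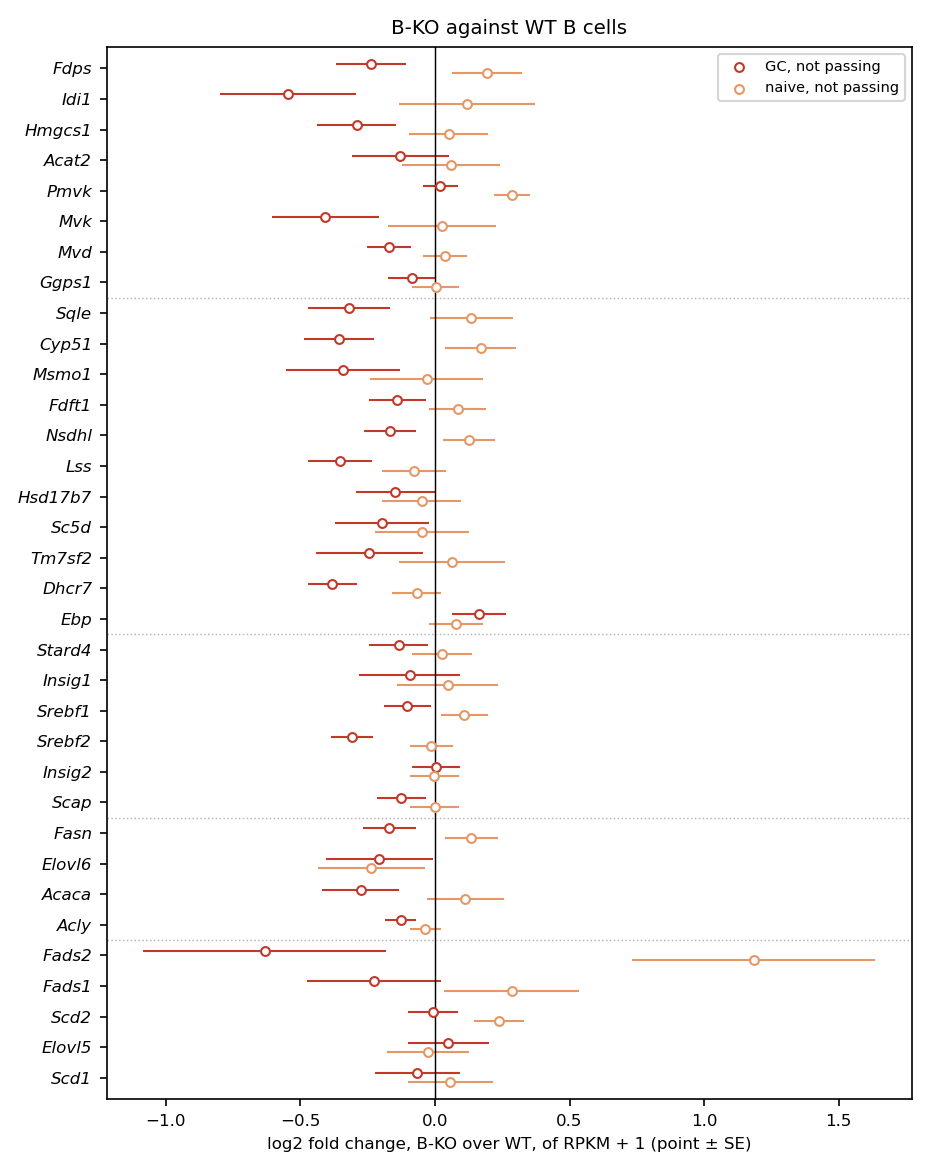
Log2 fold change (x axis, B-KO over WT, of RPKM + 1, point ± SE) of the 34 genes (y axis, grouped by role) in GC and naive B cells (limma, n = 3 per group). All points are open since no gene had an adjusted p under 0.05, and 30 of 34 GC points lie left of 0.

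The level of the sterol genes differed between libraries of the same group. Over the 19 genes of the mevalonate and sterol steps, the median deviation (log2) from the mean of the 6 GC libraries was -0.18, -0.25 and 0.06 in B-KO GC libraries 1, 2 and 3, against 0.18, 0.14 and 0.0066 in WT GC libraries 1, 2 and 3. The 3 B-KO libraries do not all lie below the 3 WT libraries, since B-KO library 3 lay above WT library 3. Of the 19 genes, 2, 2 and 14 lay above the mean in B-KO GC libraries 1, 2 and 3, against 17, 18 and 11 in WT GC libraries 1, 2 and 3. In naive libraries 10, 14 and 7 lay above the mean of their cell type in B-KO, against 6, 8 and 10 in WT. The GC marker sums were 6348, 5147 and 7193 RPKM in B-KO, against 7319, 7387 and 6190.4 RPKM in WT, so that the 2 B-KO libraries with the lowest sterol level were also among the 3 with the lowest GC marker sums. Macrophage and monocyte markers (7 of 7 found) summed to 513, 437 and 200 RPKM in B-KO GC, against 161, 152 and 364 RPKM in WT GC B cells, with the 3 highest sums in the 3 libraries of lowest sterol level. Plasma cell markers (4 of 4 found) summed to 4443, 5742 and 3838 RPKM in B-KO GC, against 3370, 3869.6 and 4773 RPKM in WT GC B cells, and their 3 highest sums were in the same 3 libraries. Not every marker followed its sum. *Lyz2* had 25.7, 142 and 110 RPKM in B-KO GC, against 60.9, 75.2 and 134 RPKM in WT GC B cells. *Prdm1* had 10.7, 62.7 and 27.7 RPKM in B-KO GC, against 22.2, 20.5 and 48.4 RPKM in WT GC B cells. Both were lowest in B-KO GC library 1. Among the GC markers, *Fas* was highest in that library, with 669, 490 and 641 RPKM in B-KO GC, against 591, 647 and 595 RPKM in WT GC. *Bcl6* had 856, 647 and 826 RPKM in B-KO GC, against 875, 812 and 858 RPKM in WT GC B cells. *Mef2b* and *S1pr2* were lower in B-KO GC libraries 1 and 2 than in the other GC libraries. Proliferation genes summed to 7474, 5787 and 8487 RPKM in B-KO, against 8413, 8899 and 5305 RPKM in WT. The part of these markers in the genotype difference was not tested.

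**Figure D4:**
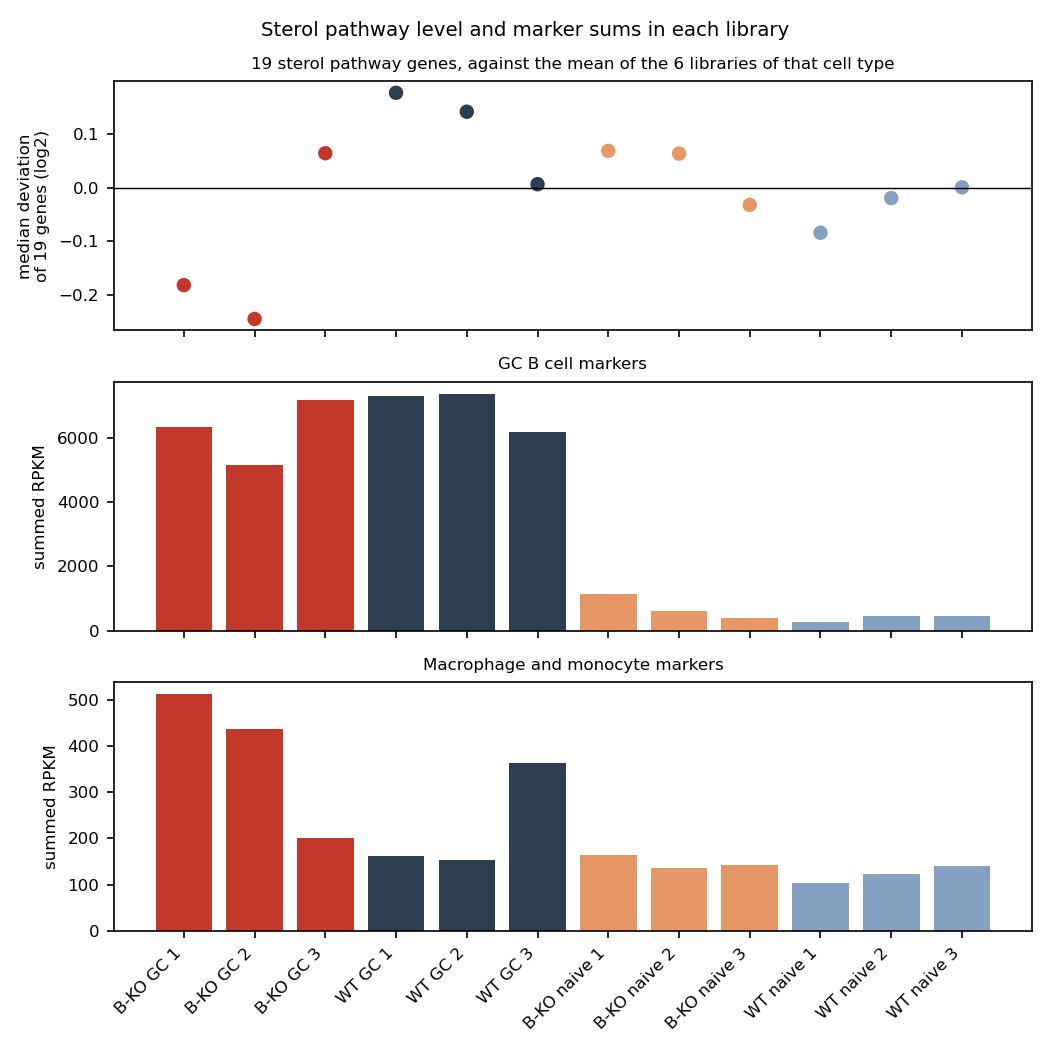
Median log2 deviation of 19 sterol pathway genes from the mean of the 6 libraries of the same cell type (top), summed RPKM of 6 GC B cell markers (middle) and summed RPKM of 7 macrophage and monocyte markers (bottom) in each of the 12 libraries, in the order B-KO GC, WT GC, B-KO naive and WT naive. B-KO GC libraries 1 and 2 lie lowest at the top, at -0.18 and -0.25, and have the highest bars at the bottom, at 513 and 437 RPKM. Among GC libraries, *Lyz2* of the macrophage sum was lowest in B-KO GC library 1, at 25.7 RPKM.

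In naive B cells, no gene of the 34 passed between B-KO and WT, against 0.0146% of all genes tested. At an unadjusted p under 0.05, 3 genes were higher in B-KO, against 3.90% of all genes tested, and none was lower. With limma voom, none was called and 2 were higher at an unadjusted p under 0.05. The count was 1 without B-KO naive library 1 and 1 without the 3 libraries named above, and it ran from 1 to 6 over the alternatives. The 3 B-KO values lay above the 3 WT values for 4 genes, against 6.30% of all genes tested. The log2 fold change was above 0 for 23 of 34 genes, beside 56.6% of all genes tested, but for 16 of 34 after quantile normalization, beside 43.8% of all genes tested. *Pmvk* had 183, 176 and 153 RPKM in B-KO naive B cells, against 138, 142 and 137 RPKM in WT naive B cells, and its log2 fold change of 0.29 ± 0.07 had the lowest p of the 34 (adjusted p = 0.568). *Fads2* had 13.8, 7.34 and 4.96 RPKM in B-KO naive B cells, against 1.10, 4.42 and 4.49 RPKM in WT naive B cells, at a log2 fold change of 1.19 ± 0.45, and *Scd2* had 229, 201 and 206 RPKM in B-KO naive B cells, against 199, 169 and 173 RPKM in WT naive B cells, at 0.24 ± 0.09 (adjusted p = 1 for both). *Fdps* followed at 0.19 ± 0.13. Of the B-KO naive libraries, library 1 was the highest for *Pmvk*, *Fads2*, *Scd2* and *Fdps*, and its GC marker sum was 1138 RPKM, against 271 to 444 RPKM in WT naive libraries. Plasma cell markers summed to 2220.3, 4049.9 and 1334 RPKM in B-KO naive B cells, against 485, 877 and 1106 RPKM in WT naive B cells. Red cell markers (5 of 5 found) summed to 1739, 925 and 1621 RPKM in B-KO naive B cells, against 563, 743 and 654 RPKM in WT naive B cells. Neither sum overlapped between the genotypes. The plasma cell marker *Sdc1* alone did overlap, with 27.5, 59.3 and 63.2 RPKM in B-KO naive, against 50.1, 52.9 and 65.3 RPKM in WT naive B cells. The part of these markers in the naive values was not tested.

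Whether the B-KO effect differed between the cell types was tested as an interaction. None of the 34 genes passed, against 0.0219% of all genes tested, and at an unadjusted p under 0.05, 7 were lower, against 1.83% of all genes tested. With limma voom, none was called and 7 were lower at an unadjusted p under 0.05. The count ran from 2 to 15 over the alternatives. It was 2 without the 3 libraries named above, 3 without WT GC library 1, 4 without B-KO GC library 2 or WT naive library 1, and 12 without B-KO GC library 3. The 4 of smallest p were *Pmvk*, *Fads2*, *Cyp51* and *Srebf2*, at -0.27 ± 0.09, -1.82 ± 0.64, -0.53 ± 0.19 and -0.30 ± 0.11 (log2, adjusted p = 1 for each). The smaller B-KO fold changes between GC and naive B cells are this same quantity, and none is shown to differ from WT.

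miR-146a acts by pairing its seed with sites in the 3′ UTR of mRNAs, which lowers their level. The complement of the seed (bases 2 to 8, capitals in the miRNA), AGTTCTC, was searched in the longest annotated 3′ UTR per gene of GENCODE vM21 (GRCm38) and was found in 4 of the 34 genes, against 11.9% of 21157 genes. The median 3′ UTR was 1583 bases in the 34 genes and 1084 bases in all genes. The sites of *Hmgcs1* (chr13:119707557-119707571, + strand), *Lss* (the site at chr10:76553801-76553815, + strand, whose seed match is followed by an A, and 2 more) and *Fads2* (chr19:10063711-10063725, - strand) are shown under the mature miRNA (chr11:43374435-43374456, - strand, RefSeq), and *Stard4* is the fourth gene.
miR-146a-5p: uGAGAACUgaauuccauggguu
Hmgcs1: actagcaAGTTCTCt
Lss: taactccAGTTCTCa
Fads2: aaggaaaAGTTCTCt
The *Fads2* site and the 2 further *Lss* sites lie past the 3′ end of the transcript whose RPKM was used. These transcripts end at chr19:10064164 for *Fads2* and chr10:76553934 for *Lss*. In GC B cells, the log2 fold change, B-KO over WT, was -0.29 ± 0.15 for *Hmgcs1*, -0.35 ± 0.12 for *Lss*, -0.63 ± 0.45 for *Fads2* and -0.14 ± 0.11 for *Stard4*. In naive B cells it was 0.05 ± 0.15 for *Hmgcs1*, -0.08 ± 0.12 for *Lss*, 1.19 ± 0.45 for *Fads2* and 0.03 ± 0.11 for *Stard4*. None of these values passed. The 4 GC values all lay below 0, as did those of 30 of all 34 genes in this comparison.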

How the data were processed

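RNA was measured in 12 libraries of sorted splenic B cells, 3 biological replicates in each of 4 groups taken from the sample titles. Per the methods the RNA was poly-A selected, while the labels name total RNA. The authors trimmed the reads, aligned them with STAR (2.2.0c per the submitters' processing notes) to mm10 and counted them with HOMER in exons on both strands. The notes name mm9 as well. The authors deposited RPKM per RefSeq transcript, scaled to 10000000 per library, 10 times the usual scale. Reads recovered from the deposited RPKM were whole within 0.1 for 100% of the values checked and gave 22945634 to 39118224 transcript-assigned reads per library, with 37.6% of them on further transcripts of a gene. Counts bound counting error only.

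For each symbol the transcript of highest mean RPKM was kept, which left 24063 genes. Tested were the 13704 genes that reached 1 RPKM in 3 or more libraries. A model of 4 group means was fitted to log2(RPKM + 1) in limma 3.58.1 (R 4.3.3), using eBayes with trended variance. Benjamini-Hochberg adjustment ran over the 13704 genes, with 0.05 as threshold. Fold changes on this scale understate the change of low genes. On simulated data of the WT comparison of GC with naive B cells (13679 genes), 82.1% of 67 genes changed 2-fold and 46.3% of 67 genes changed 1.5-fold were recovered, with 7 false calls. Genes with few reads were not among those changed. Far fewer genes were changed than the 4348 higher and 4143 lower in the data, so these rates do not give the power of the real comparison. A marker and a gene of a further list are not reported here and were left out of sums and counts of these lists. The 34 genes and the further lists were chosen with earlier results of these data known. Named were all 34 genes, in the genotype comparisons those that passed or the 4 of smallest p, and of each further list up to 4 genes of smallest p in WT. Alternatives were other pseudocounts, filters, scalings and fits, limma voom on recovered reads and leaving out each library.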

Additional observations from a re-analysis of the deposited data

How the results depend on the processing

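Counts over the 34 genes, and fold changes of those named, were computed again under 25 alternative settings. Of these, 24 were planned and 1 (without B-KO GC library 2, WT GC library 3 and B-KO naive library 1) was chosen after seeing the data. Of the counts of genes called, 246 stayed within 1.5 times their value and 2 moved. The count of genes higher in B-KO than WT naive B cells was 0 in the report, 1 (*Pmvk*, adjusted p = 0.0317) with limma array quality weights and 0 to 1 when single replicates were left out, the 1 being *Pmvk* without B-KO naive replicate 3. Among single genes, 1967 values kept their direction and call, 22 no longer passed, 6 newly passed and 1 turned, which was *Acly* in B-KO GC against B-KO naive B cells at -0.10 after quantile normalization. The cause was not tested. The number of the 34 genes below 0 in B-KO against WT GC B cells was 28 to 32 over all alternatives, and none of the 34 passed in any. Same-numbered replicates did not deviate together (correlations of -0.565 to 0.0621), so the numbers were not taken as pairs. With the replicate block, 23 genes were higher and 5 lower in B-KO GC than B-KO naive B cells, 27 were higher and 6 lower in WT GC than WT naive B cells, and 0 passed between genotypes. Depth limits mainly *Fads2* in naive B cells, with 5 reads in the lowest library.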
